A study of Rattus norvegicus with 12 samples.

Results

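The 10 genes of autophagy and mitophagy followed here were measured in INS-1E cells, an insulin-secreting rat insulinoma line used as a β-cell model: Ulk1, Becn1, Wipi1, Atg5, Atg7, Map1lc3a, Map1lc3b, Gabarapl1, Sqstm1 and Pink1. They were taken by symbol for their roles in the pathway from the 34034 gene symbols counted in bulk RNA-seq. All 10 of 10 were found and were among the 14324 genes expressed highly enough to be tested. The cells, labelled as wild type, were compared in 4 groups of 3 libraries. Untreated cells received no cytokine. IL-1βlow cells received 10 pg/ml IL-1β for 72 h, CYT cells received both 100 pg/ml IL-1β and IFN-γ at 5 ng/ml for 16 h, and IL-1βlow + CYT cells received the low dose for 72 h and then the same challenge in renewed medium. The comparisons ask how autophagy transcripts stood after mild IL-1β exposure, after the cytotoxic challenge, and after the challenge in preconditioned cells.

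Autophagy wraps cytoplasm in a double membrane, the autophagosome, and delivers it to the lysosome for breakdown. The ULK1 kinase starts the process, the BECN1 complex makes the lipid PI3P that WIPI proteins bind, and ATG5 and ATG7 take part in attaching ATG8 proteins (LC3 and GABARAP families) to the growing membrane. SQSTM1 (p62) carries ubiquitinated cargo to the ATG8 proteins, and PINK1 marks damaged mitochondria for removal, which in β-cells serves to keep insulin secretion supplied with working mitochondria. Transcript levels do not measure autophagic flux, and SQSTM1 protein is itself consumed by autophagy.

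Sqstm1 and Gabarapl1 had the largest differences of the 10 genes with CYT alone, between IL-1βlow + CYT and CYT cells, and in the interaction. Both rose with CYT alone, Sqstm1 by 3.62-fold and Gabarapl1 by 2.55-fold, and both were lower in IL-1βlow + CYT cells than in CYT cells. Wipi1 fell with CYT whether or not cells had been preconditioned and had the largest difference of IL-1βlow + CYT cells from untreated (-0.78) and from IL-1βlow cells (-0.75), Atg5 rose with CYT alone, and IL-1βlow on its own moved none of the 10 genes past the test. Levels are given as TMM-normalized CPM (counts scaled to a common library size), mean ± SD over 3 libraries. "Rose" and "fell" mean an adjusted p under 0.01 (quasi-likelihood test of edgeR, Benjamini-Hochberg over every gene tested). "Called" means that the log2 fold change was also above 1 in size, or above 0.6 for IL-1βlow against untreated cells.

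The promoters of the 2 called genes are shown because these genes responded together, and because letters bound by known factor families can be looked for in them. Each is the 250 bases before the gene's start in RefSeq, on the gene's own strand, 5′ to 3′, in the assembly GRCr8. The Sqstm1 promoter lies at chr10:35037751-35038000 on the minus strand and that of Gabarapl1 at chr4:164666082-164666331 on the plus strand. Capitals mark the GC-box (GGGCGG or its reverse complement CCGCCC) and, in Gabarapl1, a cAMP response element with any middle bases (TGANNTCA).
Sqstm1: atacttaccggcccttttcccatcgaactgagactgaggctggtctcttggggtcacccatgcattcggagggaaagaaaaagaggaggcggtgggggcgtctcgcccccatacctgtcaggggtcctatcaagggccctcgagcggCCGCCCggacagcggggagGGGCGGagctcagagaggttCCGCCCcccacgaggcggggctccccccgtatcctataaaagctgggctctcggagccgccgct
Gabarapl1: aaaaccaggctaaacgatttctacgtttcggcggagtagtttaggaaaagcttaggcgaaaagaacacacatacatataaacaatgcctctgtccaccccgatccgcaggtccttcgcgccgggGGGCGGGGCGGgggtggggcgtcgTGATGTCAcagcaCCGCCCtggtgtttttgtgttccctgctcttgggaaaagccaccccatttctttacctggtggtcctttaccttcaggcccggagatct
Of the 10 genes, 8 had a promoter in the RefSeq table, and Map1lc3a and Becn1 did not. The TGATGTCA match in Gabarapl1 stood 102 bases before the start, and TGANNTCA was found in 1 of the 8 promoters and in 13.2% of all 33469 promoters of this length. GC-boxes were found in 6 of the 8 and in 30.5% of all promoters. The GC content was 65.2% in the Sqstm1 promoter and 54.8% in that of Gabarapl1, beside a median of 51.2% over all promoters. Of the 8 promoters only that of Atg7 (48.0%) was below this median, and that of Ulk1 was highest (73.6%). A GC-box holds only G and C, and its share was not compared at equal GC content. Other letters were searched on both strands in the same windows. CACGTG, the E-box that TFEB and TFE3 bind, was in Atg5 and Pink1 (5.59% of all promoters), the AP-1 site TGANTCA in Map1lc3b (6.34%), and TTCNNNGAA, a gamma-activated site, in Atg7 (7.67%). TGATGNAA, a C/EBP-ATF composite site, and TGACNNNGC, the antioxidant response element core, were in none of the 8 (3.4% and 10.1% of all promoters). TGACNNNGC, TGANTCA and TGANNTCA share letters and can overlap. A match is a description of the sequence and not evidence that a factor binds there. Bases further upstream were not searched, so the absence of a match holds for these windows alone.

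Total counts ran from 15812640 to 20246806 per library. No molecular identifiers were used, so reads are not single molecules and the depth speaks to counting error alone. Within a group, pairs of libraries gave a chi-square of 7.08 to 27.4 per degree of freedom over genes, above sampling noise, and each library was kept as 1 replicate. The libraries are labelled as biological replicates, and p-values measure the spread between them. All 7 β-cell markers on the list were tested, and they summed to 41943 to 48774 CPM in untreated, 37425 to 43895 in IL-1βlow, 13649 to 14600 in CYT and 19434 to 24885 in IL-1βlow + CYT libraries. In bulk RNA, fewer cells of a type and less RNA per cell cannot be told apart. Of the α-cell markers, Gcg stood at 185 to 367 CPM in untreated, 155 to 259 in IL-1βlow, 24.2 to 63.1 in CYT and 73.1 to 151 CPM in IL-1βlow + CYT libraries, and Irx2 was at 0. Sst and Hhex (δ-cell), Ppy, Cpa1, Prss1 and Amy2a3 (acinar), Pecam1 and Cdh5 (endothelial), Col1a1 and Col3a1 (fibroblast), and Ptprc, Cd68 and Cd3e (leukocyte) stayed at a summed level of at most 1.25 CPM per cell type, with all 3 acinar genes, Hhex and Ptprc at 0. The β-cell sum is carried by Ins1, Chga and Ins2. Libraries of these genes lay below all untreated ones in CYT and in IL-1βlow + CYT cells. In IL-1βlow + CYT cells Ins1 stood at 11822 ± 1594 CPM beside 23994 ± 2894 in untreated cells (SD, n = 3). Ins2 stood at 1765 ± 259 beside 8097 ± 870, and Chga at 5080 ± 571 beside 10377 ± 511 CPM. With IL-1βlow alone, Ins2 libraries (4897 ± 107 CPM) also lay below all untreated ones. With CYT alone, Pdx1, Iapp and Nkx6-1 libraries lay below all untreated ones, while Slc2a2 libraries overlapped with untreated ones. In IL-1βlow + CYT cells, Nkx6-1 libraries still lay below all untreated ones, while Slc2a2, Pdx1 and Iapp were near or above their untreated level. There Slc2a2 stood at 596 ± 103 CPM beside 434 ± 51.3 in untreated cells, Pdx1 at 263 ± 34.8 beside 266 ± 3.64, and Iapp at 2595 ± 485 beside 2832 ± 334 CPM (SD, n = 3). The part of the fall in endocrine markers in the results for the 10 genes was not tested.

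**Figure D1:**
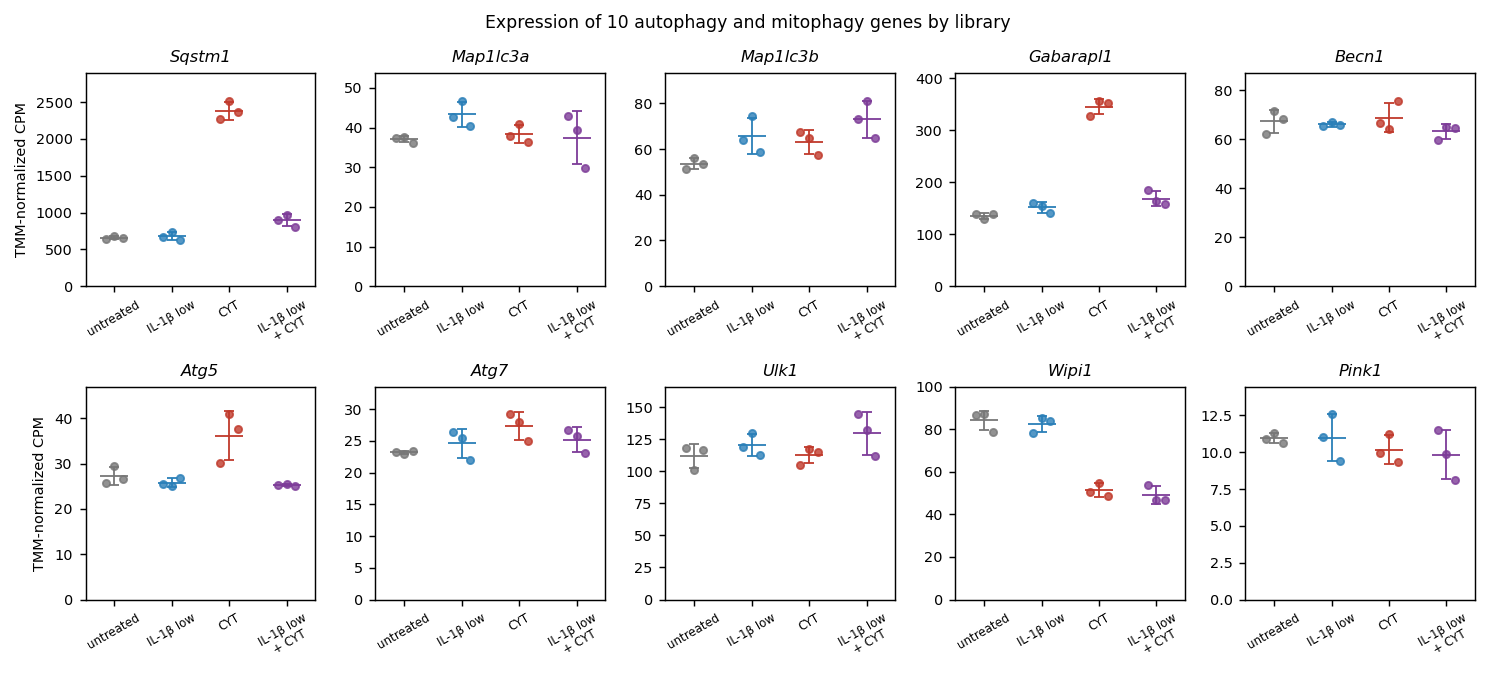
TMM-normalized CPM of each of the 10 genes (one panel per gene, each axis from 0) in the 12 libraries; points are libraries, the long bar is the group mean and the whiskers are ± SD (n = 3). CYT libraries stand apart for Sqstm1 (2268 to 2515 CPM) and Gabarapl1 (328 to 356 CPM), and both CYT-treated groups are low for Wipi1.

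Sqstm1, which encodes the cargo receptor p62, stood at 644, 678 and 649 CPM in untreated libraries and at 675, 739 and 631 CPM in IL-1βlow libraries. It stood at 2268, 2515 and 2361 CPM in CYT libraries and at 896, 974 and 810 CPM in IL-1βlow + CYT libraries. Every CYT library was above every library of the other 3 groups, and IL-1βlow + CYT libraries did not overlap with untreated or IL-1βlow libraries either. The means were 657 ± 18.4, 682 ± 53.9, 2381 ± 125 and 893 ± 81.7 CPM (SD, n = 3) in that order. Sqstm1 rose with CYT by a log2 fold change of 1.86 (SE 0.09, adjusted p = 7.01e-10). In IL-1βlow + CYT cells it fell against CYT cells by 1.41 on the log2 scale (SE 0.09, adjusted p = 4.92e-08). It nevertheless remained above untreated cells by 0.44 (adjusted p = 0.00221) and above IL-1βlow cells by 0.39 (adjusted p = 0.00822), both under the fold change minimum. These 2 smaller differences no longer had an adjusted p under 0.01 when IL-1βlow + CYT replicate 1 or 2 or untreated replicate 1 or 3 was left out. For the difference from IL-1βlow cells the same held without untreated replicate 2, without IL-1βlow replicate 1 or 3, with RLE size factors (adjusted p = 0.0126) and with only the compared groups in the fit (adjusted p = 0.0405). The adjusted p then reached 0.0155 against untreated and 0.048 against IL-1βlow cells, with the same direction. The order from low to high was untreated, IL-1βlow, IL-1βlow + CYT and CYT, and of the neighbours only untreated and IL-1βlow cells failed to differ past the test (0.05, 95% interval -0.14 to 0.24, adjusted p = 0.805). A processed copy, Sqstm1-ps1, is annotated in GRCr8 and is not among the counted symbols, so reads that fit both are uncertain.

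Gabarapl1, a GABARAP-family ATG8 protein, stood at 138, 129 and 138 CPM in untreated, 159, 155 and 140 CPM in IL-1βlow, 328, 356 and 352 CPM in CYT and 184, 163 and 158 CPM in IL-1βlow + CYT libraries. The CYT libraries were again above all others, while IL-1βlow and IL-1βlow + CYT libraries overlapped. The means were 135 ± 5.06, 151 ± 10.1, 345 ± 15.1 and 168 ± 13.9 CPM (SD, n = 3). Gabarapl1 rose with CYT by 1.35 (SE 0.08, adjusted p = 5.81e-09), and in IL-1βlow + CYT cells it fell against CYT cells by 1.04 on the log2 scale (SE 0.08, adjusted p = 3.01e-07). That fall lies close to the minimum of 1, and without IL-1βlow + CYT replicate 3 it was 0.99 in size (log2 fold change -0.99), below the minimum and with the same direction. Against untreated cells the difference in IL-1βlow + CYT cells was 0.32 (adjusted p = 0.0119), and against IL-1βlow cells it was 0.15 (95% interval -0.02 to 0.33, adjusted p = 0.295). The neighbours untreated and IL-1βlow, and IL-1βlow and IL-1βlow + CYT, did not differ past the test.

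The effect of CYT itself was smaller in preconditioned cells for these 2 genes. The interaction, which is the log2 change with CYT in preconditioned cells minus that in naive cells, was -1.47 for Sqstm1 (SE 0.13, adjusted p = 2.87e-06) and -1.20 for Gabarapl1 (SE 0.12, adjusted p = 6.5e-06). Against untreated cells, the log2 fold change in IL-1βlow + CYT cells was 23.9% of that in CYT cells for Sqstm1 and 23.3% for Gabarapl1. This kept share includes the difference of IL-1βlow from untreated cells (0.05 and 0.16). Within preconditioned cells the change with CYT was 0.39 for Sqstm1 and 0.15 for Gabarapl1, beside 1.86 and 1.35 in naive cells. The median kept share was 40.1% over the 1439 genes called higher with CYT. Over the 15 of these on the wider autophagy list below, the median was 37.6%, with a range from 0.621% (Wdr45) to 59.4% (Lamp1). For Atg5 the interaction was -0.44 (adjusted p = 0.0439), and for the other 7 genes it ran from -0.26 to 0.09 with adjusted p of 0.237 or more. In all, 2 of the 10 were called in the interaction beside 10.7% of all genes, and the same 2 passed on adjusted p alone beside 22.6%. The comparison of IL-1βlow + CYT with CYT and the comparison of CYT with untreated cells use the same CYT libraries, so their values are set side by side and not as independent results.

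**Figure D2:**
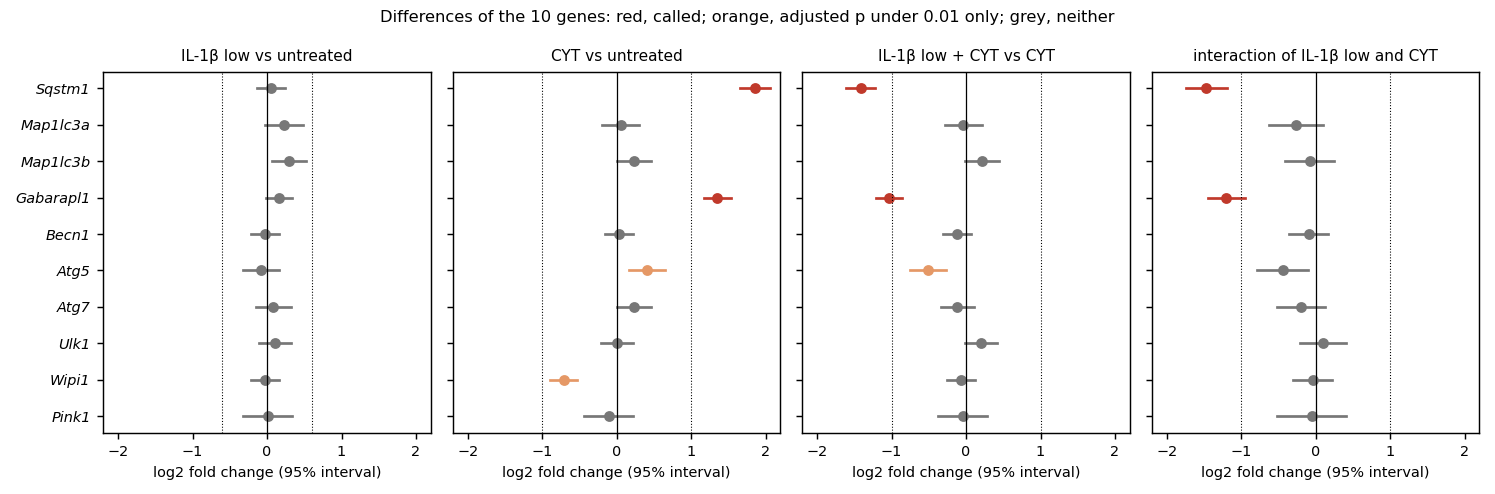
Log2 fold change (point) with its 95% interval (line) for each of the 10 genes in 3 comparisons and the interaction; dotted lines mark the fold change minimum (0.6 in the first panel, 1 in the others). Sqstm1 and Gabarapl1 lie beyond the minimum in the last 3 panels, and Wipi1 (-0.71) is the 1 gene that fell with CYT.

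The other ATG8 genes moved less. Map1lc3b, which encodes LC3B, the form most used as an autophagosome marker, stood at 51.2, 56.2 and 53.6 CPM in untreated, 63.9, 74.3 and 58.7 in IL-1βlow, 67.3, 65.0 and 57.3 in CYT and 73.1, 81.0 and 65.0 CPM in IL-1βlow + CYT libraries. Its untreated libraries were below all others. The means were 53.6 ± 2.50, 65.6 ± 7.98, 63.2 ± 5.27 and 73.0 ± 8.02 CPM (SD, n = 3). Map1lc3b rose in IL-1βlow + CYT cells against untreated cells by 0.45 (SE 0.11, adjusted p = 0.00761). The adjusted p was over 0.01 without any 1 of the untreated libraries, IL-1βlow + CYT replicate 1 or 2, CYT replicate 2 or IL-1βlow replicate 1, reaching 0.0479, with a log2 fold change of 0.36 or more. No single step along that path passed the test: 0.24 for CYT (adjusted p = 0.0701), 0.29 for IL-1βlow (adjusted p = 0.257) and 0.21 for IL-1βlow + CYT against CYT cells (adjusted p = 0.117). GRCr8 annotates the copies Map1lc3b-ps1 and Map1lc3b-ps2, which were not counted, so shared reads are uncertain here too.

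Map1lc3a, which encodes the related LC3A, stood at 37.4, 37.5 and 36.1 CPM in untreated, 42.7, 46.7 and 40.5 in IL-1βlow, 37.8, 41.0 and 36.3 in CYT and 42.9, 39.5 and 29.9 CPM in IL-1βlow + CYT libraries. IL-1βlow libraries lay above untreated ones without overlap, by 0.23 (95% interval -0.03 to 0.48, adjusted p = 0.404), which did not pass the test. Against untreated cells the difference was 0.05 with CYT (95% interval -0.20 to 0.31) and 0.02 in IL-1βlow + CYT cells (95% interval -0.24 to 0.27). Gabarapl1 rose in the same CYT libraries.

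The ratio of Map1lc3b to Map1lc3a counts within a library does not depend on how libraries are scaled. It was 1.37, 1.50 and 1.48 in untreated, 1.50, 1.59 and 1.45 in IL-1βlow, 1.78, 1.59 and 1.58 in CYT and 1.70, 2.05 and 2.17 in IL-1βlow + CYT libraries. The IL-1βlow + CYT libraries lay above all untreated and IL-1βlow libraries and overlapped with those of CYT cells. On the log2 scale IL-1βlow + CYT exceeded untreated cells by 0.44, IL-1βlow cells by 0.38 and CYT cells by 0.26, CYT exceeded untreated cells by 0.18, and IL-1βlow exceeded untreated cells by 0.06. The p-values of the exact two-sided permutation test were 0.1, 0.1, 0.2, 0.1 and 0.4, of which 0.1 is the smallest that 3 libraries against 3 allow, so no ratio could pass a threshold of 0.05.

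**Figure D3:**
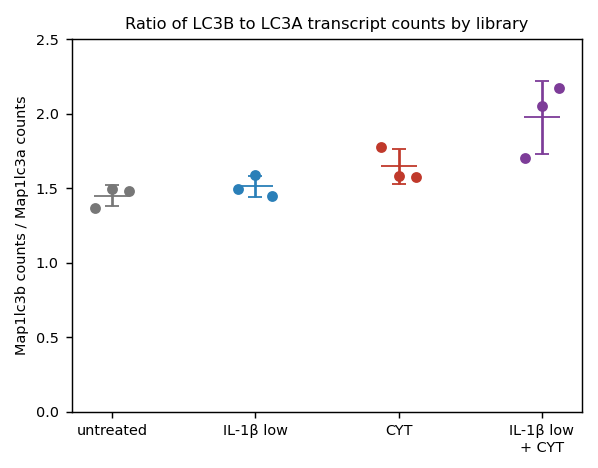
Ratio of Map1lc3b to Map1lc3a raw counts in each of the 12 libraries (points), with the group mean (long bar) and ± SD (whiskers, n = 3). The group means are 1.45 for untreated, 1.51 for IL-1βlow, 1.65 for CYT and 1.98 for IL-1βlow + CYT cells.

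Wipi1, which encodes a PI3P-binding protein of the WIPI family, was lower in both groups given CYT. It stood at 86.7, 87.1 and 78.9 CPM in untreated and 78.2, 85.4 and 84.1 CPM in IL-1βlow libraries, and at 50.4, 55.0 and 48.8 CPM in CYT and 53.8, 46.6 and 46.8 CPM in IL-1βlow + CYT libraries. The first 2 groups overlapped each other, the last 2 overlapped each other, and no library of one pair reached into the other pair. Wipi1 fell with CYT by 0.71 on the log2 scale in naive cells (SE 0.09, adjusted p = 6.96e-06) and by 0.75 in preconditioned cells (IL-1βlow + CYT against IL-1βlow, SE 0.09, adjusted p = 2.5e-05). The interaction was -0.04 (95% interval -0.30 to 0.23, adjusted p = 0.835), and IL-1βlow + CYT differed from CYT cells by -0.07 (95% interval -0.26 to 0.12, adjusted p = 0.542). Wipi1 and Arsg overlap in GRCr8 and the strand setting of the counting is not given in the sources used here, so reads of the pair may be mixed.

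Of the 2 conjugation enzymes, Atg5 responded to CYT and Atg7 did not pass the test. Atg5, a part of the complex that attaches ATG8 proteins to lipid, stood at 25.7, 29.5 and 26.5 CPM in untreated, 25.4, 25.0 and 26.9 in IL-1βlow, 30.2, 40.9 and 37.5 in CYT and 25.2, 25.5 and 25.1 CPM in IL-1βlow + CYT libraries. The CYT libraries were above all others but spread widely (36.2 ± 5.48 CPM, SD, n = 3). Atg5 rose with CYT by 0.41 (SE 0.11, adjusted p = 0.00562) and fell in IL-1βlow + CYT against CYT cells by 0.52 on the log2 scale (SE 0.11, adjusted p = 0.0016), in both cases under the fold change minimum. Without CYT replicate 2, its highest library, these were 0.32 (adjusted p = 0.035) and -0.42 (adjusted p = 0.0106), and the rise also missed an adjusted p of 0.01 without CYT replicate 3 or untreated replicate 1 or 3. IL-1βlow + CYT cells stood -0.11 from untreated cells (95% interval -0.35 to 0.14, adjusted p = 0.539).

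Atg7, the enzyme that activates ATG8 proteins and ATG12, had means of 23.2 ± 0.221 CPM in untreated, 24.6 ± 2.32 in IL-1βlow, 27.3 ± 2.20 in CYT and 25.2 ± 1.92 CPM in IL-1βlow + CYT cells (SD, n = 3). Its CYT libraries (29.2, 27.9 and 24.9 CPM) lay above the untreated ones (23.2, 23.0 and 23.4 CPM), by 0.24 (95% interval 0.01 to 0.47, adjusted p = 0.0669). No pair of neighbours in the order untreated, IL-1βlow, IL-1βlow + CYT, CYT differed past the test. Atg7 overlaps LOC120102368 in GRCr8.

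Ulk1, Becn1 and Pink1 passed no test in any comparison. Ulk1, the initiating kinase, stood at 118, 101 and 117 CPM in untreated, 119, 130 and 113 in IL-1βlow, 105, 118 and 116 in CYT and 145, 132 and 112 CPM in IL-1βlow + CYT libraries. Its groups overlapped throughout, with differences of 0.01 for CYT (95% interval -0.21 to 0.22) and 0.21 for IL-1βlow + CYT against untreated cells (95% interval -0.01 to 0.43, adjusted p = 0.164). Becn1, a core subunit of the lipid kinase complex, had means of 67.3 ± 4.80, 66.1 ± 0.941, 68.8 ± 6.01 and 63.2 ± 2.94 CPM in untreated, IL-1βlow, CYT and IL-1βlow + CYT cells (SD, n = 3). Its difference with CYT was 0.03 (95% interval -0.15 to 0.22), and Becn1 overlaps Cntd1 in GRCr8. Pink1, the mitophagy kinase, had means of 10.9 ± 0.337, 11.0 ± 1.60, 10.2 ± 0.992 and 9.83 ± 1.67 CPM in the same order. At this level its intervals were wide: -0.11 with CYT (95% interval -0.43 to 0.22) and -0.16 for IL-1βlow + CYT against untreated cells (95% interval -0.48 to 0.17). Changes within these intervals were not detectable at this depth and number of libraries.

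Counted over the 10 genes, the calls were few, and any share of so small a list moves in large steps. With CYT against untreated cells 2 of the 10 were called beside 21.6% of all genes, and 3 rose and 1 fell on adjusted p alone beside 49.7%. In IL-1βlow + CYT against CYT cells 2 were called beside 12.5%, and 3 fell and none rose beside 36.3%. Against untreated cells, IL-1βlow + CYT cells had 0 called beside 5.99%, with 3 past adjusted p alone (Sqstm1 and Map1lc3b higher, Wipi1 lower) beside 13.8%. Against IL-1βlow cells they had 0 called beside 3.88%, with 2 past adjusted p alone (Sqstm1 higher, Wipi1 lower) beside 8.2%. With IL-1βlow alone edgeR called 0 of the 10 beside 0.433%, and 0 passed on adjusted p alone beside 0.503%. There, 1 of the 10 (Map1lc3b) had an unadjusted p under 0.05, and DESeq2 and the exactTest also called 0. The median log2 fold change of the 10 genes was 0.14 with CYT, -0.09 in IL-1βlow + CYT against CYT cells and 0.07 with IL-1βlow, beside -0.04, 0.02 and 0.00 over all genes tested.

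A wider list of 95 autophagy genes in 10 roles, which includes the 10, was read in the same way. One of them, Calcoco2, had at most 4 counts in any library and was not tested. Of the 94 tested, 38 rose and 12 fell with CYT, of which 15 and 2 were called. These are 53.2% past adjusted p and 18.1% called, beside 49.7% and 21.6% of all genes. In IL-1βlow + CYT against CYT cells 8 rose and 32 fell, of which 0 and 7 were called, or 42.6% and 7.45% beside 36.3% and 12.5%. The median log2 fold change was 0.21 with CYT and -0.15 in IL-1βlow + CYT against CYT cells, beside -0.04 and 0.02 over all genes. With IL-1βlow alone edgeR called 0 of the 94 and 0 passed on adjusted p, while 19 had an unadjusted p under 0.05. Without the 10 genes, 84 remained, of which 13 were called higher and 2 lower with CYT, and 5 were called lower in IL-1βlow + CYT against CYT cells.

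Cargo receptors and lysosomal genes held the highest role medians with CYT. The role counts here and in what follows are small and stand beside 49.7% of all genes past adjusted p with CYT and 36.3% in IL-1βlow + CYT against CYT cells. The shares with CYT ran from 36.4% for mitophagy genes to 70.0% for PI3P effectors and lipid transfer proteins. Of 12 cargo receptors 7 rose and 1 fell (66.7%), with a median of 0.45. Optn, a receptor for ubiquitinated mitochondria and bacteria, went from 23.3 ± 1.82 to 135 ± 20.9 CPM (SD, n = 3), a log2 fold change of 2.53 (SE 0.18, adjusted p = 2.41e-08), which was larger than that of Sqstm1. It fell by 1.21 on the log2 scale in IL-1βlow + CYT against CYT cells (adjusted p = 4.15e-05) but, at 58.2 ± 16.3 CPM, remained called above untreated cells (1.32, adjusted p = 6e-05), the 1 gene of the 94 that was. Of 11 lysosomal genes and their transcription factors 7 rose and none fell, with a median of 0.62. Tfe3, a transcription factor for lysosomal and autophagy genes, rose by 1.38 (adjusted p = 1.28e-08) and fell by 0.76 on the log2 scale in IL-1βlow + CYT against CYT cells (adjusted p = 9.7e-06). Lamp1, Mcoln1 and Tfeb, named after their values were seen, rose by 1.09, 1.19 and 0.81.

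mTORC1 is the nutrient-sensing kinase complex that inhibits ULK1. Of 14 genes of mTORC1 and AMPK control 6 rose and 1 fell with CYT, with a median of 0.19, and 0 rose and 5 fell in IL-1βlow + CYT against CYT cells. These shares, 50.0% and 35.7%, are close to those of all genes. Flcn, which acts in lysosomal nutrient sensing, rose by 1.44 (adjusted p = 2.32e-08). Ddit4, a stress-induced mTORC1 inhibitor, stood at 29.5 ± 3.20 CPM in untreated, 74.6 ± 4.83 in CYT and 34.7 ± 1.97 CPM in IL-1βlow + CYT cells (SD, n = 3). In the last group it fell against CYT cells by 1.10 on the log2 scale (adjusted p = 1.2e-06). Sesn2, another stress-induced inhibitor of mTORC1, stood at 175 ± 9.57, 317 ± 40.8 and 145 ± 17.5 CPM in the same groups and fell there by 1.13 (adjusted p = 1.43e-06).

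Within the early steps, single genes moved in opposite directions. Of 10 PI3P effectors and lipid transfer proteins 5 rose and 2 fell with CYT. Wdr45, a relative of Wipi1, stood at 15.4, 14.1 and 13.4 CPM in untreated and 31.6, 33.5 and 33.5 CPM in CYT libraries, higher by 1.20 (adjusted p = 1.66e-07), while Wipi1 fell. It stood at 14.4 ± 0.490 CPM in IL-1βlow + CYT cells, a fall of 1.19 on the log2 scale against CYT cells (adjusted p = 5.37e-07) and 0.01 from untreated cells (adjusted p = 0.969). Of 5 initiation genes 1 rose and 1 fell. Ulk2, a kinase related to Ulk1, was called lower with CYT (-1.07, adjusted p = 7.26e-05) and was the 1 gene of the list called higher in the interaction (1.23, adjusted p = 0.0011). Of 8 genes of the phosphatidylinositol 3-kinase complex 3 rose and 1 fell, and of 10 of the conjugation machinery 3 rose and 1 fell. Atg4c, a protease that trims ATG8 proteins, was called lower (-1.12, adjusted p = 0.000814).

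Of the 5 ATG8 genes 1 rose (Gabarapl1) and 1 fell with CYT. The one that fell was Gabarapl2, from 44.2 ± 2.55 to 24.9 ± 3.28 CPM (-0.83, SE 0.11, adjusted p = 1.95e-05), and it rose in IL-1βlow + CYT against CYT cells by 0.85 (adjusted p = 2.62e-05), to 45.0 ± 4.57 CPM. Gabarapl1 and Gabarapl2 were thus opposite in sign in both comparisons. Gabarap had a difference of 0.21 with CYT (adjusted p = 0.0478) and of 0.03 in IL-1βlow + CYT against CYT cells (adjusted p = 0.827). Gabarapl2 overlaps Adat1 in GRCr8. Annotated copies of Gabarapl2 and of Gabarap were not counted, so shared reads are uncertain for both genes.

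Of 11 mitophagy genes 3 rose and 1 fell with CYT, and 1 rose and 3 fell in IL-1βlow + CYT against CYT cells, with none called. Pink1 differed in the latter by -0.05 (95% interval -0.37 to 0.28). Usp30, a deubiquitinase of the mitochondrial outer membrane, rose with CYT by 0.80 (adjusted p = 7.29e-05). It fell in IL-1βlow + CYT against CYT cells by 0.51 on the log2 scale (adjusted p = 0.0034). Tbk1, a kinase that acts on cargo receptors, and Phb2, an inner-membrane receptor, differed with CYT by -0.29 (adjusted p = 0.183) and 0.21 (adjusted p = 0.0385). Fundc1, a mitophagy receptor of the outer membrane named after its values were seen, fell with CYT by 0.67 on the log2 scale (adjusted p = 0.00183). It rose in IL-1βlow + CYT against CYT cells by 0.94 (adjusted p = 0.000177), to 11.2 ± 0.645 CPM beside 9.30 ± 1.73 in untreated cells. Of 8 autophagosome-lysosome fusion genes 2 rose and 3 fell with CYT, with a median of -0.28, and 3 rose and none fell in IL-1βlow + CYT against CYT cells.

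**Figure D4:**
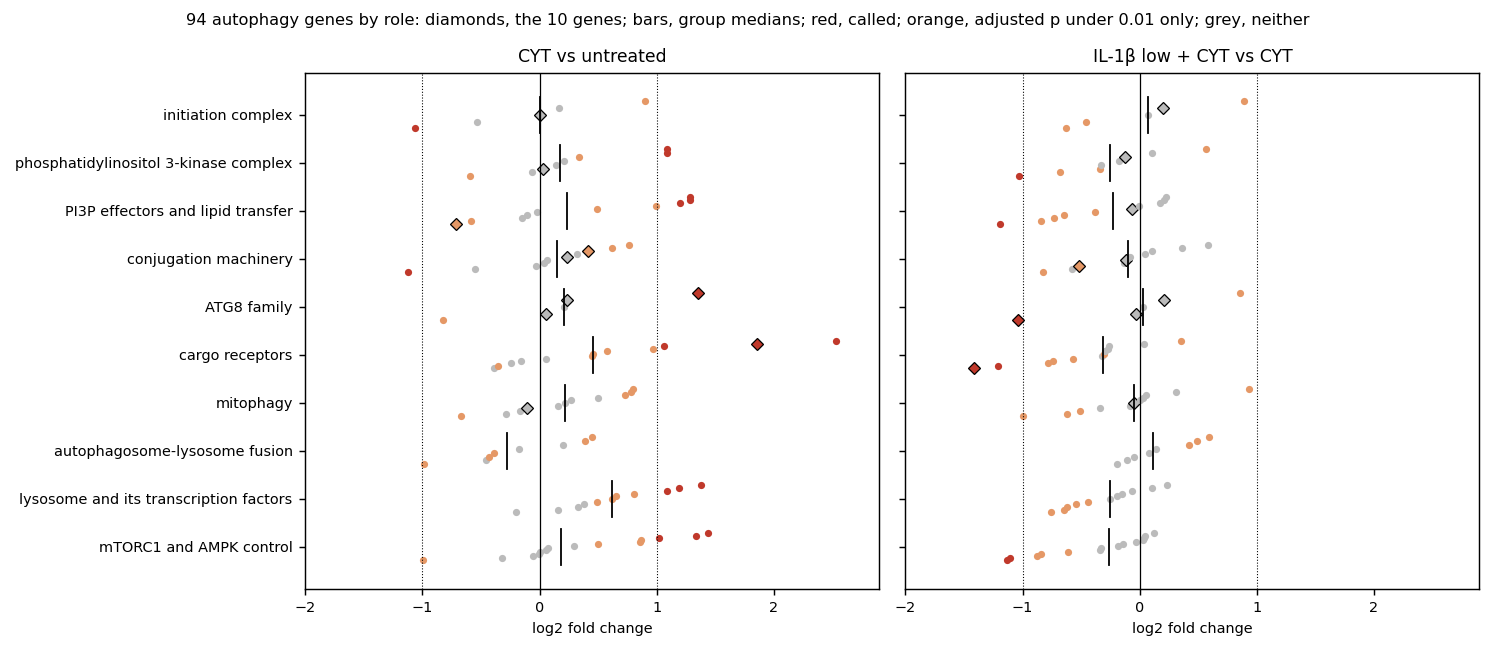
Log2 fold changes of the 94 tested autophagy genes by role, for CYT against untreated cells (left) and IL-1βlow + CYT against CYT cells (right); diamonds are the 10 genes, circles the other 84, short bars the median of each role and dotted lines the fold change minimum of 1. Cargo receptors and lysosomal genes have medians of 0.45 and 0.62 on the left and -0.31 and -0.25 on the right. Both panels use the same CYT libraries.

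The genes whose levels followed the called members most closely were found by Pearson's r of log2 CPM over the 12 libraries, among 11497 genes with a mean log2 CPM above 2. Over the same libraries, which share the 4 group means, Sqstm1 and Gabarapl1 themselves had r = 0.987. For Sqstm1 the nearest were Fbxo7 and Gfer (r = 0.997 for each). For Gabarapl1 they were Lonp1, a mitochondrial protease (r = 0.993), and Dbp, a circadian transcription factor (r = 0.992). Fbxo7 and Lonp1 overlap other genes in GRCr8. These values describe likeness over 12 libraries that are mostly set by the CYT group, and no test was made on them.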

How the data were processed

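PolyA RNA of INS-1E cells was sequenced, and the values used are counts deposited by the authors as whole numbers per gene symbol and library, without normalization. TruSeq libraries were made, and the trimmed reads were aligned by Rsubread (build mRatBN7.2) before featureCounts counted them. All 12 columns were matched by library name in the labels, with 0 left unused.

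R 4.3.3 with edgeR 4.0.16 was used. Genes above 1 CPM in 2 or more libraries entered one TMM-scaled quasi-likelihood fit of all 12 libraries (8 residual degrees of freedom, common biological coefficient of variation 0.123), with 5 comparisons and the interaction as contrasts and Benjamini-Hochberg adjustment over 14324 genes. Thresholds followed the study's methods, which used exactTest. The SE is the log2 fold change over the root of F. Scripts were tested on simulated counts. The kept share divides the log2 fold change of IL-1βlow + CYT by that of CYT, each against untreated cells. Promoters and overlaps came from RefSeq on GRCr8.

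Named genes were the 10 members, the 5 largest called rises and falls of the wider list with mean log2 CPM above 2 (CYT against untreated, IL-1βlow + CYT against CYT), its ATG8 genes and genes acting with Pink1, and the 2 genes most like each called member. Not every gene or marker that meets these rules is reported here. The members and lists were chosen with earlier results of these data known.

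Replicate numbers 1 to 3 come from the labels, which do not state a shared culture. Deviations from group means correlated by -0.19 to 0.52 over 18 same-numbered pairs. They correlated by over 0.1 in all 3 pairs of CYT with IL-1βlow + CYT, of IL-1βlow with CYT and of IL-1βlow with IL-1βlow + CYT. Pairs with untreated libraries did not all reach 0.1. The main fit held no replicate term. Pairing entered only through the replicate block, an alternative fit over all groups, untreated included. Alternatives were RLE factors, DESeq2 1.42.0, exactTest, other count filters, fits of the compared groups alone, the replicate block, another threshold and leaving out each library.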

Additional observations from a re-analysis of the deposited data

Results flagged for a closer look

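For 2 of the 10 genes the effect of CYT differed between naive and preconditioned cells by a test of the difference itself. The interaction was -1.47 on the log2 scale for Sqstm1 (95% interval -1.74 to -1.19) and -1.20 for Gabarapl1 (95% interval -1.45 to -0.95). Sqstm1 was higher with CYT by 1.86 in naive cells and by 0.39 in preconditioned cells, and Gabarapl1 by 1.35 and 0.15. Groups of 3 libraries are too small for a test of single outlying libraries.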

How the results depend on the processing

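Over 19 other settings, the fold changes that were called kept their call in 109 of 110 recomputations and none changed sign. The exception was Gabarapl1 in IL-1βlow + CYT against CYT cells without IL-1βlow + CYT replicate 3, so that 1 to 2 members were called there when libraries were left out. Leaving out libraries gave 0 to 1 genes of the wider list in IL-1βlow + CYT against IL-1βlow cells and 1 to 2 against untreated cells. With the replicate block, 2 members were called with CYT, in IL-1βlow + CYT against CYT cells and in the interaction, as without it. The block changed no other call of the members. With an adjusted p under 0.05 and no fold change minimum, which changes both thresholds, 4 members passed with CYT, 4 in IL-1βlow + CYT against untreated cells and 2 against IL-1βlow cells. Of the wider list, 60 passed with CYT, 47 in IL-1βlow + CYT against CYT, 27 against untreated and 15 against IL-1βlow cells, 1 with IL-1βlow alone (Bcl2l13, adjusted p = 0.0451) and 48 in the interaction. Dropping the minimum at an adjusted p under 0.01 gave 50, 40, 16, 8, 0 and 35 in that order.

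Signs turned only in differences near 0 that passed no test, in 32 recomputations, and the cause was not tested. Map1lc3a in IL-1βlow + CYT against untreated cells was -0.011 with at least 10 counts in every library, and Pink1 with IL-1βlow was -0.0012 under the replicate block. The other ranges come from leaving out libraries. With IL-1βlow they were -0.091 to 0.016 for Becn1, -0.10 to 0.11 for Pink1, -0.014 to 0.10 for Sqstm1 and -0.075 to 0.0055 for Wipi1. With CYT they were -0.012 to 0.096 for Becn1 and -0.042 to 0.091 for Ulk1. In IL-1βlow + CYT cells they were -0.17 to 0.10 for Map1lc3a and -0.20 to 0.069 for Pink1 against CYT, -0.10 to 0.15 for Map1lc3a against untreated, and -0.064 to 0.0026 for Atg5 and -0.040 to 0.094 for Atg7 against IL-1βlow cells. In the interaction they were -0.21 to 0.063 for Pink1, -0.019 to 0.19 for Ulk1 and -0.14 to 0.013 for Wipi1.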
